A study of Mus musculus with 8 samples.

Results

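DNA replication genes were examined in inguinal (ING) WAT, the subcutaneous fat depot of the groin, of C57BL/6j mice around weaning, at postnatal day (PN) 21, and in young adulthood, at PN98. The members are 47 genes chosen by symbol for their part in S phase, from the complexes that mark and license replication origins to the enzymes that supply deoxynucleotides. Of these, 45 were listed in the table of expression values, in which 37904 genes were found, and 44 had a mean expression of at least 1 FPKM over the 8 mice and were tested. *Cdt1* and *Gins2* were not analysed here. *Orc1* was too low to test, with 0.639, 0.661, 1.19 and 0.517 FPKM at PN21 and 0.519, 0.189, 0.224 and 0.205 FPKM at PN98. FPKM counts fragments relative to transcript length and library size, and the values of all transcripts of a gene were summed.

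Each group held 4 mice, m1, m49, m138 and m145 at PN21 and m35, m106, m114 and m125 at PN98, and values are given below in this order. All 8 mice were of the same strain, with no transgene or drug treatment in the labels, which give neither sex nor diet; the study's methods describe a change of diet between weaning and PN98, to either of 2 diets, without saying which the sequenced PN98 mice ate. *Ddx3y*, a gene of the Y chromosome, had 18.1 to 25.9 FPKM in the 8 mice. *Xist*, the RNA of the inactive X chromosome, had 0.247 to 0.832 FPKM at PN21 and 0 to 0.00704 FPKM at PN98. The p-values below set the difference between the ages against the spread between single mice.

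Before S phase, the origin recognition complex (ORC) binds DNA and, with CDC6 and CDT1, loads the hexamer of MCM2 to MCM7, the core of the replicative helicase. The helicase is activated by MCM10, CDC45 and the GINS complex, primase and the DNA polymerases copy the strands, the clamp PCNA holds the polymerases on DNA, and FEN1 and DNA ligase 1 join the Okazaki fragments. Many of these genes are transcribed at the G1/S transition under the control of E2F transcription factors. Mature adipocytes do not divide, whereas progenitor, endothelial and immune cells of a growing fat depot can.

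Between the ages, FPKM were compared as log2(FPKM + 1) with limma over 15957 genes, as PN98 minus PN21, and p-values were adjusted after Benjamini-Hochberg across these genes. Of the 44 members tested, 18 were lower at PN98 with an adjusted p under 0.05 and 0 were higher. Over all genes tested, 2.95% were lower and 2.36% were higher by the same rule. The 18 genes were *Rrm2*, *Uhrf1*, *Tk1*, *Mcm5*, *Mcm6*, *Mcm2*, *Mcm3*, *Tyms*, *Mcm10*, *Lig1*, *Prim1*, *Rfc5*, *Mcm4*, *Rrm1*, *Fen1*, *Pcna*, *Rpa3* and *Ccne2*, in order of their log2 fold change from −2.42 to −0.87. At an unadjusted p under 0.05, 32 members were lower and 0 higher, against 19.2% and 8.22% of all genes. The count of 18 fell to between 4 and 8 when any single mouse other than PN98 mouse m35 was left out, against 0.706% to 1.69% of all genes. *Rrm1*, *Rrm2* and *Uhrf1* kept an adjusted p under 0.05 in every alternative run, as did *Mcm10* in those that tested it. In bulk tissue, fewer cells of a type and less RNA per cell cannot be told apart.

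The values of PN21 and PN98 mice did not overlap for 23 of the 44 members, with all 4 PN21 mice above all 4 PN98 mice; over all genes, this held for 10.0%. No member had all PN98 mice above all PN21 mice. In 39 members the log2 fold change was below 0, and the median over the members was −0.79, against −0.21 over all genes. This shift of all genes depended on the scaling of the libraries, with a median of −0.02 after median of ratios scaling and 0.01 when libraries were brought to 1 common sum over nuclear genes. Relative to the median of all genes, the members lay at −0.58 as deposited, −0.57 with median of ratios and −0.58 with nuclear scaling. The count of members lower with an adjusted p under 0.05 was 18 with median of ratios, against 2.90% of all genes, and 9 with nuclear scaling, against 1.67%.

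**Figure D1:**
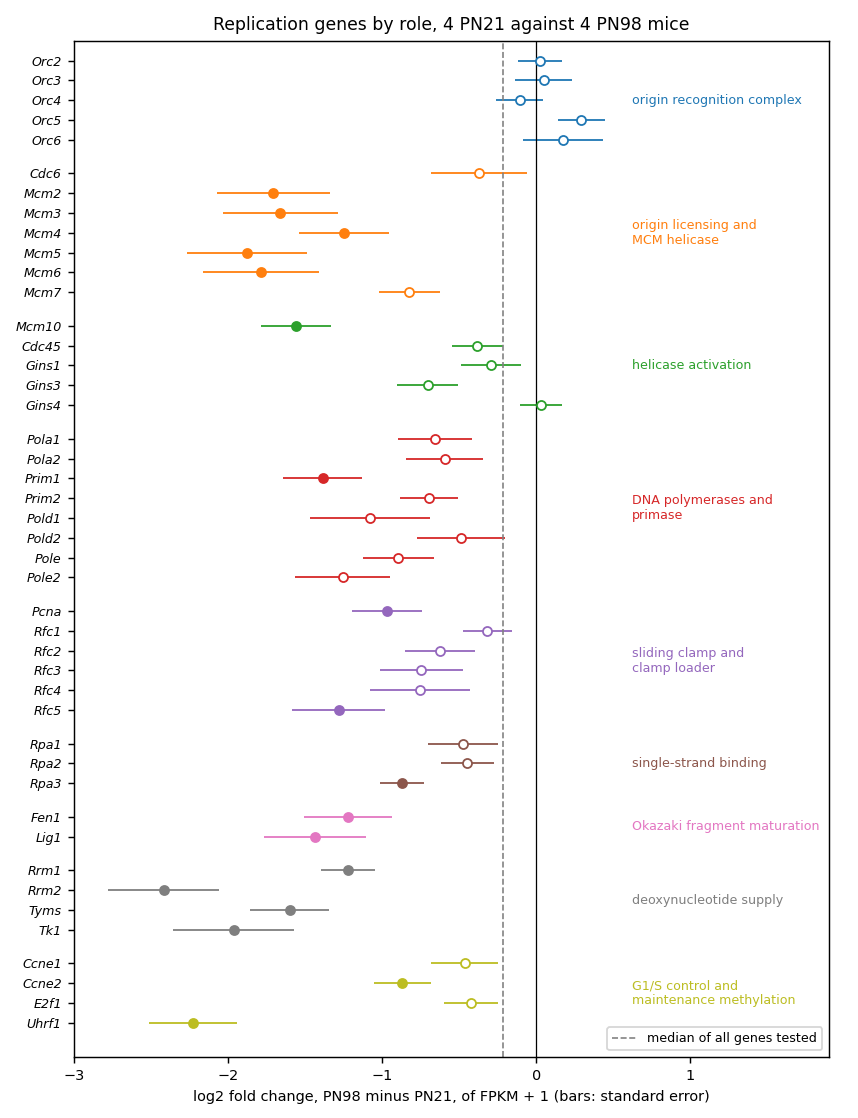
Log2 fold change of FPKM + 1, PN98 minus PN21, of the 44 members tested, grouped by role; bars are standard errors from limma, filled points have an adjusted p under 0.05 and the dashed line is the median of all genes (−0.21). All 4 genes of deoxynucleotide supply and 5 MCM genes are filled, whereas the 5 ORC genes lie between −0.11 and 0.29; *Orc4* turned from −0.11 to 0.12 with median of ratios and 0.15 with nuclear scaling.

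The size of the difference varied with the step of replication, in values that were not tested against each other. Adding 1 FPKM before the log understates the change of low genes, so these values also depend on the expression level. Genes of deoxynucleotide supply had a median log2 fold change of −1.78, and 4 of 4 passed the test. The median was −1.66 for origin licensing and the MCM helicase (5 of 7 passed), −1.33 for Okazaki fragment maturation (2 of 2), −0.80 for DNA polymerases and primase (1 of 8), −0.75 for the clamp and its loader (2 of 6), −0.67 for G1/S control and maintenance methylation (2 of 4), −0.48 for single-strand binding (1 of 3), −0.38 for helicase activation (1 of 5) and 0.05 for the ORC (0 of 5).

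The ORC marks origins and is built from the subunits ORC1 to ORC6. *Orc2* to *Orc6* were tested and none passed. *Orc1*, too low to test, had a mean of 0.751 FPKM at PN21 and 0.284 FPKM at PN98. *Orc2* had 8.28, 8.11, 8.50 and 6.40 FPKM at PN21 and 7.95, 8.38, 8.11 and 7.31 FPKM at PN98, and *Orc3* had 17.7, 24.7, 24.5 and 17.2 FPKM at PN21 and 23.2, 24.9, 18.5 and 19.8 FPKM at PN98. *Orc4* had 25.4, 30.9, 29.9 and 28.0 FPKM at PN21 and 25.3, 31.5, 23.0 and 26.2 FPKM at PN98. The values of both ages overlapped for each of these 3 genes. Log2 fold changes were 0.02 for *Orc2* (adjusted p = 0.929 from limma), 0.05 for *Orc3* (adjusted p = 0.882) and −0.11 for *Orc4* (adjusted p = 0.656). Most FPKM of *Orc4* came from transcripts not annotated as protein-coding, which held all but 18.8% at PN21 and all but 25.0% at PN98.

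*Orc5* had the highest log2 fold change of the members, 0.29, with 7.38, 8.76, 7.10 and 6.21 FPKM at PN21 and 8.90, 10.6, 8.67 and 8.71 FPKM at PN98 (standard error 0.15, adjusted p = 0.238 from limma). When all transcripts that name *Orc5* in the deposited table were summed, the value turned to −0.64, and that of *Orc2* to −0.84 in the same way. PN98 mice m106 and m35 were above the highest PN21 mouse m49, and m114 and m125 lay just below m49. *Orc6* had 8.16, 6.09, 7.41 and 11.1 FPKM at PN21 and 6.91, 6.83, 12.8 and 11.6 FPKM at PN98, with high and low mice at both ages and an adjusted p of 0.676 for the log2 fold change of 0.17. In the deposited table the row of *Orc6* also names the neighbouring gene *Vps35*. Summed over *Orc2* to *Orc6*, expression was 66.9 to 78.5 FPKM at PN21 and 71.1 to 82.2 FPKM at PN98.

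For origin licensing, 5 of the 7 genes tested passed. The MCM genes encode a ring of 6 related ATPases that encircles DNA and unwinds it ahead of the fork. *Mcm5* (chromosome 8, 75109569 to 75128439, positions here and below in GRCm38) had 11.3, 8.13, 14.0 and 8.42 FPKM at PN21 and 5.29, 1.68, 2.11 and 0.653 FPKM at PN98. All PN98 mice were below all PN21 mice, m35 was the highest of the PN98 mice and m125 the lowest, and the mean was 4.30 times higher at PN21 (log2 fold change −1.88 with a standard error of 0.39, adjusted p = 0.0330 from limma). *Mcm6* (chromosome 1, 128331590 to 128359664) had 15.8, 14.4, 21.5 and 16.2 FPKM at PN21 and 9.22, 4.10, 4.26 and 1.58 FPKM at PN98, again with m35 highest and m125 lowest at PN98 and no overlap (log2 fold change −1.79 with a standard error of 0.38, adjusted p = 0.0357). *Mcm2* (chromosome 6, 88883474 to 88898780) had 9.71, 7.27, 12.9 and 7.80 FPKM at PN21 and 5.40, 2.05, 1.54 and 0.926 FPKM at PN98 and showed the same order of m35 and m125 (log2 fold change −1.71 with a standard error of 0.37, adjusted p = 0.0377).

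*Mcm3* and *Mcm4* passed as well, with log2 fold changes of −1.66 and −1.25. *Mcm7*, which is listed with 10 transcripts, had a log2 fold change of −0.82 (adjusted p = 0.0514 from limma), although its ages did not overlap. In single PN21 mice, the ratio of the FPKM level to that of *Mcm2* was 1.08 to 1.16 for *Mcm5*, 0.938 to 1.19 for *Mcm4* and 1.63 to 2.08 for *Mcm6*. At PN98, these ratios of FPKM levels were 0.706 to 1.37, 1.16 to 2.44 and 1.71 to 2.77. For *Mcm7* the ratio was 2.51 to 3.39 at PN21 and 3.71 to 13.0 at PN98, so that the lowest PN98 mouse was above the highest PN21 mouse; *Mcm3* and *Mcm7* were not chosen by the rule for named genes and are given because of their values. *Cdc6*, the loader of the MCM ring, had a log2 fold change of −0.37 (adjusted p = 0.453).

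**Figure D2:**
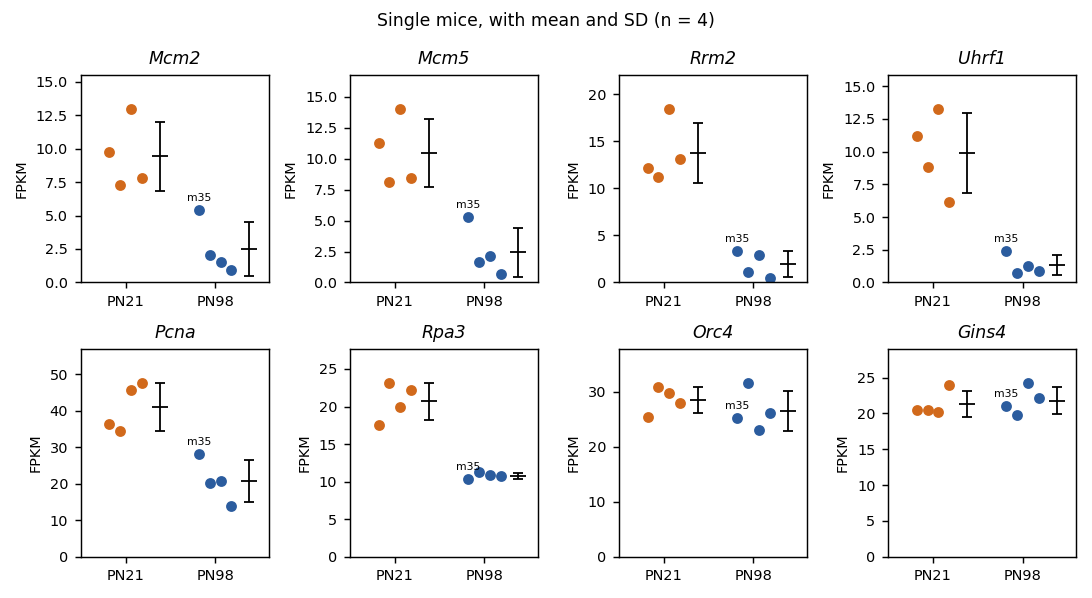
FPKM of 8 members in single PN21 (orange) and PN98 (blue) mice, with the mean and SD of each age (n = 4 mice) as a black bar; PN98 mouse m35 is marked. In *Mcm2*, *Mcm5*, *Rrm2*, *Uhrf1*, *Pcna* and *Rpa3* the ages do not overlap, and in *Orc4* and *Gins4* they do.

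Among the factors that turn the loaded MCM ring into a moving helicase, *Mcm10* (chromosome 2, 4989714 to 5012791) passed the test. It had 5.77, 2.84, 5.89 and 4.59 FPKM at PN21 and 1.37, 0.915, 0.587 and 0.839 FPKM at PN98, and every PN98 mouse was below the lowest PN21 mouse m49 (log2 fold change −1.56 with a standard error of 0.23, adjusted p = 0.0117 from limma). *Gins4*, a subunit of the GINS complex, had 20.4, 20.5, 20.2 and 24.0 FPKM at PN21 and 21.1, 19.8, 24.2 and 22.1 FPKM at PN98. The ages overlapped, and the log2 fold change of 0.03 did not pass (adjusted p = 0.900). *Gins1*, *Gins3* and *Cdc45* lay between −0.70 and −0.29 in log2 fold change and did not pass; the ages of *Gins3* did not overlap.

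*Prim1* (chromosome 10, 128015168 to 128030037), the catalytic subunit of primase, had 7.20, 7.15, 7.96 and 7.58 FPKM at PN21 and 4.38, 1.92, 2.11 and 1.25 FPKM at PN98. PN21 mice differed little from each other, and all PN98 mice were lower, m35 least (log2 fold change −1.39 with a standard error of 0.26, adjusted p = 0.0232 from limma). The other 7 genes of polymerases α, δ and ε and of primase had log2 fold changes from −1.26 to −0.49, with adjusted p-values from 0.0551 to 0.292, and 3 of these 7 had ages that did not overlap.

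*Pcna* (chromosome 2, 132249162 to 132253314) encodes the sliding clamp. Its values were 36.3, 34.3, 45.8 and 47.5 FPKM at PN21 and 28.2, 20.2, 20.8 and 14.0 FPKM at PN98, with m35 highest and m125 lowest at PN98 and no overlap (log2 fold change −0.97 with a standard error of 0.23, adjusted p = 0.0487 from limma). Reads of *Pcna* may be shared with the processed pseudogene *Pcna-ps2*, listed at 27.3, 28.6, 36.0 and 39.4 FPKM at PN21 and 22.5, 16.0, 15.8 and 13.1 FPKM at PN98, so the level of *Pcna* is uncertain. *Rfc5* (chromosome 5, 117378103 to 117389047), a subunit of the clamp loader, had 9.74, 8.68, 17.6 and 12.7 FPKM at PN21 and 7.35, 3.99, 4.01 and 2.61 FPKM at PN98, without overlap (log2 fold change −1.28 with a standard error of 0.30, adjusted p = 0.0490). The other 4 clamp loader genes had log2 fold changes from −0.75 to −0.32 and did not pass.

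*Rpa3* (chromosome 6, 8255936 to 8259173), the smallest subunit of the complex that coats single-stranded DNA, had 17.5, 23.1, 20.0 and 22.2 FPKM at PN21 and 10.3, 11.3, 10.8 and 10.7 FPKM at PN98. In this gene m35 was the lowest PN98 mouse, and the 4 PN98 mice lay close together (log2 fold change −0.87 with a standard error of 0.14, adjusted p = 0.0157 from limma). *Rpa1* and *Rpa2* had log2 fold changes of −0.48 and −0.45 and did not pass.

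For joining of the lagging strand, *Lig1* (chromosome 7, 13277283 to 13311433), which encodes DNA ligase 1, had 18.4, 12.9, 16.2 and 20.1 FPKM at PN21 and 12.1, 3.66, 4.20 and 4.79 FPKM at PN98. The ages did not overlap, but m35 was close to the lowest PN21 mouse m49 (log2 fold change −1.44 with a standard error of 0.33, adjusted p = 0.0472 from limma). *Fen1* (chromosome 19, 10199132 to 10204169), the flap endonuclease, had 9.32, 7.71, 11.2 and 10.6 FPKM at PN21 and 6.73, 3.22, 3.47 and 1.93 FPKM at PN98, with m35 again next to m49 (log2 fold change −1.22 with a standard error of 0.29, adjusted p = 0.0492).

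All 4 genes of deoxynucleotide supply passed. Ribonucleotide reductase, made of the large subunit RRM1 and the small subunit RRM2, turns ribonucleotides into deoxyribonucleotides. *Rrm2* (chromosome 12, 24708241 to 24714146) had 12.2, 11.2, 18.4 and 13.2 FPKM at PN21 and 3.33, 1.15, 2.97 and 0.464 FPKM at PN98. The ages were far apart, and the mean was 6.95 times higher at PN21 (log2 fold change −2.42 with a standard error of 0.36, adjusted p = 0.0120 from limma). *Rrm1* (chromosome 7, 102441695 to 102469771) had 15.0, 12.8, 16.5 and 11.9 FPKM at PN21 and 6.95, 5.42, 4.64 and 4.75 FPKM at PN98, without overlap and with little spread at either age (log2 fold change −1.23 with a standard error of 0.18, adjusted p = 0.0108). *Tyms* (chromosome 5, 30058202 to 30073617), the thymidylate synthase, had 16.2, 14.8, 16.8 and 16.7 FPKM at PN21 and 5.36, 3.87, 7.73 and 2.71 FPKM at PN98. Here m114 was the highest PN98 mouse and m35 the second (log2 fold change −1.60 with a standard error of 0.26, adjusted p = 0.0152). *Tk1*, the thymidine kinase of dividing cells, passed with a log2 fold change of −1.97.

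*Uhrf1* (chromosome 17, 56303321 to 56323486) brings the maintenance DNA methyltransferase to newly copied DNA. It had 11.2, 8.80, 13.2 and 6.17 FPKM at PN21 and 2.39, 0.716, 1.28 and 0.908 FPKM at PN98, and the mean was 7.45 times higher at PN21, with no overlap (log2 fold change −2.23 with a standard error of 0.29, adjusted p = 0.00682 from limma). *Ccne2* (chromosome 4, 11191351 to 11204779), a cyclin E that drives entry into S phase, had 5.83, 3.01, 3.80 and 3.84 FPKM at PN21 and 2.06, 1.68, 1.64 and 1.62 FPKM at PN98, without overlap (log2 fold change −0.87 with a standard error of 0.19, adjusted p = 0.0377). *E2f1*, an activating E2F factor, had 6.54, 4.24, 5.68 and 5.01 FPKM at PN21 and 4.50, 3.16, 4.07 and 3.21 FPKM at PN98. PN98 mouse m35 was above the lowest PN21 mouse m49, and the gene did not pass (log2 fold change −0.43 with a standard error of 0.17, adjusted p = 0.165). The log2 fold change of *Ccne1* was −0.47 (adjusted p = 0.205).

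**Figure D3:**
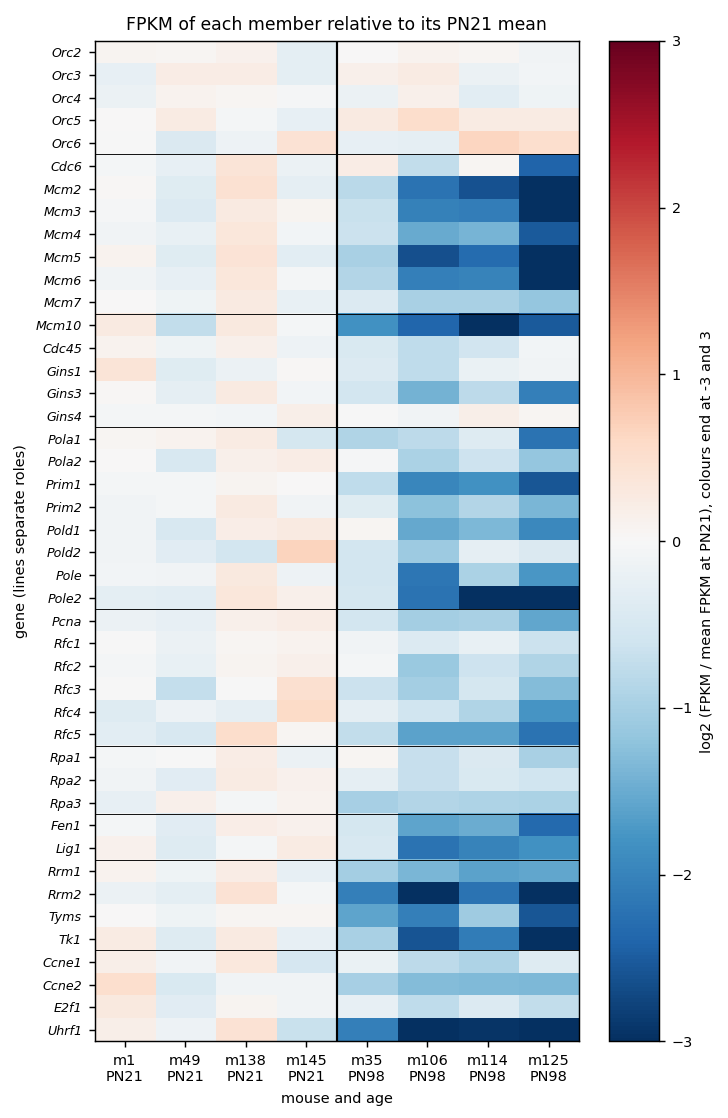
FPKM of each of the 44 members in each mouse relative to the mean of the gene at PN21, on a log2 scale, with roles separated by lines. The PN98 columns are blue for most members, palest in m35 for many of them, and near white for *Orc2*, *Orc4* and *Gins4*.

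PN98 mouse m35 was the highest PN98 mouse in 32 of the 45 members listed and m125 the lowest in 26. Over the 44 members, the median level relative to the PN21 mean was 69.4% in m35, 46.5% in m106, 52.3% in m114 and 34.0% in m125. In m35, 27 of the 44 members were below every PN21 mouse. The shares of all genes that rank in these ways are not given here, so these counts of single mice have no background. Without m35, 27 members were lower with an adjusted p under 0.05, against 18.0% of all genes tested. The median log2 fold change of the members was then −0.89.

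Markers of other cell types also differed in level between the mice. All 12 lymphocyte markers had a log2 fold change below 0 and 0 passed; their summed level was 582 to 1361 FPKM at PN21, 1174 FPKM in m35 and 21.2 to 263 FPKM in the other PN98 mice. In m35, the sum of lymphocyte markers was thus inside the PN21 range, at 126% of the PN21 mean, and the 44 members tested summed to 73.9% of theirs and *Mcm2* to *Mcm7* to 62.9%. Of 6 adipocyte markers, 6 were higher at PN98 in log2 fold change and 3 passed, with sums of 12183 to 22399 FPKM at PN21 and 33164 to 43276 FPKM at PN98. Epithelial markers summed to 2.33 to 28.0 FPKM at PN21 and 0.211 to 1.36 FPKM at PN98, and 1 of the 4 tested was lower and passed (*Epcam*, adjusted p = 0.0415 from limma). Erythroid markers summed to 24.8 to 50.6 FPKM at PN21 and 7.61 to 16.1 FPKM at PN98, and the 1 tested was lower and passed (*Alas2*, adjusted p = 0.0211). Of 7 adipose progenitor markers, 1 was lower and passed (*Dlk1*, log2 fold change −2.91, adjusted p = 0.00520 from limma), with sums of 443 to 882 FPKM at PN21 and 447 to 911 FPKM at PN98. Of 3 brown adipocyte markers 0 passed, with sums of 1857 to 2915 FPKM at PN21, 122 FPKM in m35 and 357 to 2168 FPKM in the other PN98 mice. *Ucp1* (log2 fold change −2.81) and *Cox7a1* (−2.48) were higher in every PN21 mouse than in every PN98 mouse. The ages of *Cidea* (−0.67) overlapped. Macrophage markers summed to 226 to 470 FPKM at PN21 and 166 to 399 FPKM at PN98 and endothelial markers to 160 to 237 and 71.4 to 259 FPKM, and 0 of these 11 genes passed. Of 3 skeletal muscle markers, 3 were higher in every PN98 mouse than in every PN21 mouse and 0 passed, with sums of 5.11 to 199.98 FPKM at PN21 and 244 to 1725 FPKM at PN98. The part of these cell types in the level of the members was not tested.

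**Figure D4:**
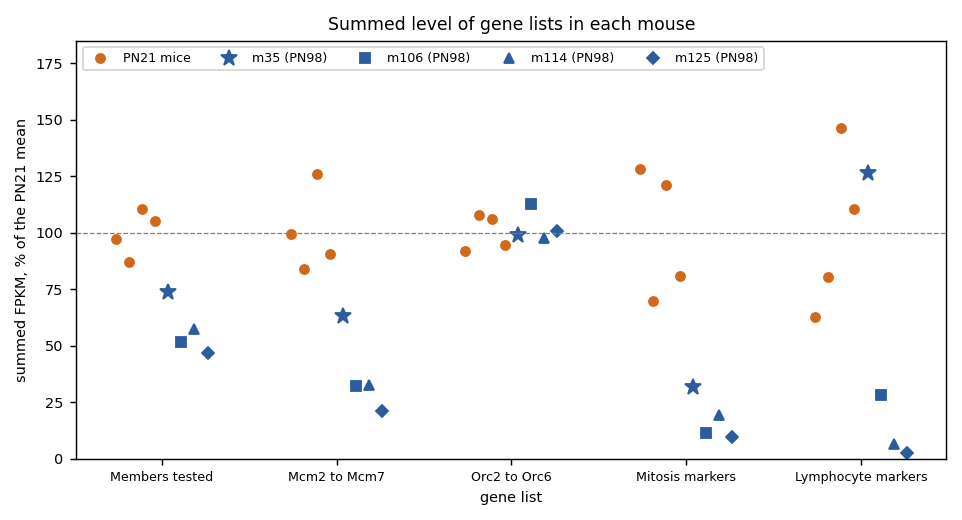
Summed FPKM of 5 gene lists in each mouse, in percent of the mean of the 4 PN21 mice; orange circles are PN21 mice and blue symbols single PN98 mice. Mouse m35 (star) lies at 126% for lymphocyte markers, at 73.9% for the 44 members tested and at 31.8% for mitosis markers.

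Of 10 mitosis markers, 8 were lower at PN98 and passed, against 2.95% of all genes tested. *Mki67*, a protein of cycling cells, had 11.7, 6.73, 12.8 and 6.49 FPKM at PN21 and 2.87, 0.928, 1.09 and 0.316 FPKM at PN98, with all PN98 mice below all PN21 mice (log2 fold change −2.24, adjusted p = 0.0153 from limma).

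The values of several members came from transcripts that GENCODE does not annotate as protein-coding. When only protein-coding transcripts were summed, 18 of 42 members tested were lower with an adjusted p under 0.05, against 4.80% of all genes, and 14 genes were called in both ways. *Cdc6*, *Mcm7*, *Pole2* and *Rfc4* were called only with protein-coding transcripts, and *Ccne2*, *Lig1*, *Mcm10* and *Tyms* only with all transcripts; of these, *Mcm10* and *Tyms* fell below the expression filter when only protein-coding transcripts were summed and were not tested in that way. These genes are named after their values were seen. In *Cdc6*, protein-coding transcripts held 64.3% of the FPKM at PN21 and 26.2% at PN98, and their log2 fold change was −0.81 (adjusted p = 0.0382 from limma). A transcript with a retained intron held 27.0% of *Cdc6* at PN21 and 70.5% at PN98. In *Tyms*, 72.4% at PN21 and 71.5% at PN98 came from a transcript annotated as a target of nonsense-mediated decay, and protein-coding transcripts held 5.45% and 4.30%. *Mcm10* had 11.2% of its FPKM in protein-coding transcripts at PN21 and 23.2% at PN98. These shares are estimates of Cufflinks from short reads.

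**Figure D5:**
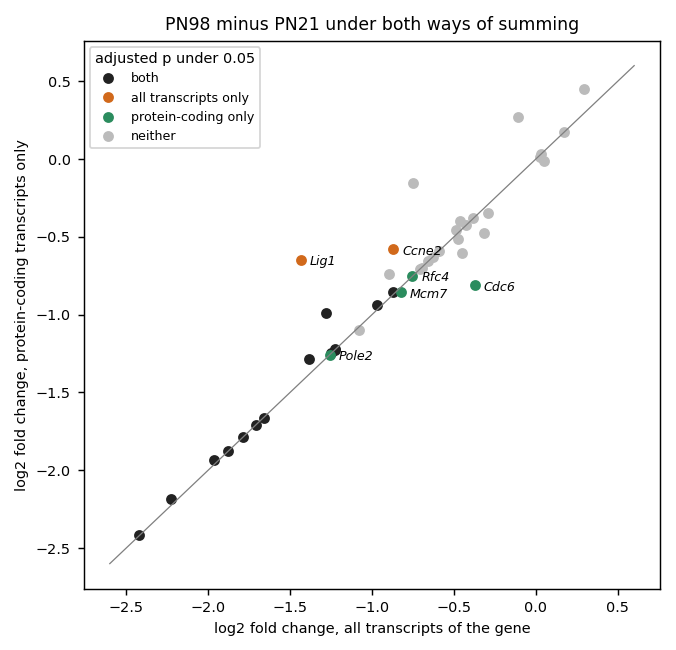
Log2 fold change of the members, PN98 minus PN21, summed over all transcripts (horizontal) and over protein-coding transcripts only (vertical), with the diagonal of equal values; colours show which sum had an adjusted p under 0.05. *Cdc6* lies below the diagonal (−0.37 and −0.81) and *Lig1* above it (−1.44 and −0.65).

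In the fit of single transcripts on log2(FPKM), 58 transcripts of 40 members passed the expression filter of the study. With an unadjusted p under 0.05, 35 of these were lower and 1 higher at PN98, and 14.8% of all 23146 transcripts tested were lower. An adjusted p under 0.05 was found for 3 transcripts, of *Rrm1* (log2 fold change −1.37, adjusted p = 0.0304), *Tyms* (−1.80, adjusted p = 0.0380) and *Rpa3* (−0.92, adjusted p = 0.0454), all lower, and for 0.618% of all transcripts in this direction. With any single mouse other than m35 left out, 0 or 1 transcript had an adjusted p under 0.05, and without m35 this number was 21, against 6.05% of all transcripts. The transcript higher with an unadjusted p under 0.05 belonged to *Orc5* (log2 fold change 0.51, adjusted p = 0.207).

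Other genes of the replication pathway numbered 68, of which 63 were tested. Of these, 15 were lower and 0 higher with an adjusted p under 0.05, against 2.95% and 2.36% of all genes. Their median log2 fold change was −0.63, against −0.21 over all genes. Without m35, 29 were lower, against 18.0% of all genes. Without any other single mouse 1 to 6 were lower, against 0.706% to 1.69% of all genes. Of the 8 genes of chromatin assembly and DNA methylation, 5 passed, and of the 7 kinases and licensing factors tested, 4 passed. In replisome and fork factors 2 of 19 passed, in nucleotide synthesis 1 of 7, in E2F and pocket proteins 2 of 12 and in G1 cyclins, kinases and inhibitors 1 of 10.

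*Top2a*, the topoisomerase that untangles copied DNA, had 48.9, 29.3, 48.1 and 31.6 FPKM at PN21 and 12.5, 3.66, 6.45 and 1.02 FPKM at PN98 and fell in every PN98 mouse below all PN21 mice (log2 fold change −2.83 with a standard error of 0.53, adjusted p = 0.0246 from limma). *Hells*, a chromatin remodeller of DNA methylation, had 15.5, 10.1, 8.91 and 26.2 FPKM at PN21 and 3.24, 1.76, 0.495 and 1.87 FPKM at PN98 (log2 fold change −2.48 with a standard error of 0.40, adjusted p = 0.0159). *Ccna2*, cyclin A2 of S phase, had 15.8, 10.2, 14.5 and 9.24 FPKM at PN21 and 3.24, 0.995, 2.03 and 0.459 FPKM at PN98 (log2 fold change −2.41 with a standard error of 0.34, adjusted p = 0.0108). In all 3 genes no PN98 mouse reached the lowest PN21 mouse. *Dut*, which removes dUTP, and *E2f2*, an activating E2F, also passed, with log2 fold changes of −1.28 (adjusted p = 0.0316) and −1.50 (adjusted p = 0.0263).

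*Rrm2b* encodes the small subunit of ribonucleotide reductase used outside S phase. Its values were 6.39, 4.95, 6.37 and 6.81 FPKM at PN21 and 11.8, 7.65, 9.98 and 8.43 FPKM at PN98; each PN98 mouse was above each PN21 mouse, but the gene did not pass (log2 fold change 0.54 with a standard error of 0.18, adjusted p = 0.106 from limma). The value turned to −0.69 when all transcripts that name *Rrm2b* in the deposited table were summed. Over all alternative runs, the adjusted p of *Rrm2b* from limma ran from 0.0231 to 0.219, so whether it passed depended on the run. *Cdkn2b*, a cyclin-dependent kinase inhibitor, had 2.28, 3.33, 2.72 and 3.38 FPKM at PN21 and 4.57, 3.61, 7.86 and 3.76 FPKM at PN98, also without overlap and without passing (log2 fold change 0.56 with a standard error of 0.24, adjusted p = 0.175). The inhibitor *Cdkn1c* had 20.5, 12.8, 15.4 and 26.1 FPKM at PN21 and 10.9, 7.95, 7.51 and 5.62 FPKM at PN98 and just missed the threshold (log2 fold change −1.11 with a standard error of 0.26, adjusted p = 0.0501), as did *Ccnd1*, the G1 cyclin D1, with 22.8, 20.8, 22.1 and 16.0 FPKM at PN21 and 12.5, 3.90, 5.86 and 1.70 FPKM at PN98 (log2 fold change −1.84 with a standard error of 0.44, adjusted p = 0.0508). *Cdkn1a*, *Cdkn1b* and *Rb1*, which restrain entry into S phase, had log2 fold changes of −0.45 (adjusted p = 0.158), −0.18 (adjusted p = 0.658) and −0.02 (adjusted p = 0.967), and the sign of the latter 2 turned with median of ratios and nuclear scaling. *Chtf8* (0.15), *Cdk2* (−0.43), *Asf1a* (−0.33) and *Rbl2* (0.27), the highest of their lists in log2 fold change, had adjusted p-values from 0.178 to 0.810.

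The promoters of the members were searched because E2F factors are known to control many genes of this kind. RefSeq promoters of GRCm38.p6, from 250 bases before to 50 after the start, were found for 39 of the 47 members and for 27025 genes in all. At least 1 E2F octamer, spelled TTTCCCGC, TTTCGCGC, TTTGCCGC or TTTGGCGC on either strand, stood in 15 of the 39 members (38.5%) and in 2.60% of all genes. CCAAT stood in 24 members (61.5%) and 41.1% of all genes, and the letters TTTGAA of the cell cycle element CHR in 5 members (12.8%) and 20.2% of all genes. Of the 13 members tested with an E2F match, 5 were lower with an adjusted p under 0.05, and of the 24 without a match 11. The median log2 fold change was −1.08 with a match and −0.67 without, and the 2 sets were not tested against each other. A match describes the letters and is not evidence of binding. The promoters of 3 MCM genes with matches are shown with that of *Rrm2*, which had the lowest log2 fold change of the members and held none; capitals mark E2F octamers on either strand, which overlap each other in *Mcm5* and in the first run of *Mcm6*.
*Mcm3*, chr1:20820263-20820562, minus strand: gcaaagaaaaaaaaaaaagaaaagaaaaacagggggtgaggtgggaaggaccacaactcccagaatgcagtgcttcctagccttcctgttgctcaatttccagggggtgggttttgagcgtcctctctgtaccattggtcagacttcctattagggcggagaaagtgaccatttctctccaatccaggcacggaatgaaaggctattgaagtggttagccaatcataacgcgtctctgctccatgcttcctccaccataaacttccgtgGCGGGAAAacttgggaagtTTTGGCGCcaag
*Mcm5*, chr8:75109259-75109558, plus strand: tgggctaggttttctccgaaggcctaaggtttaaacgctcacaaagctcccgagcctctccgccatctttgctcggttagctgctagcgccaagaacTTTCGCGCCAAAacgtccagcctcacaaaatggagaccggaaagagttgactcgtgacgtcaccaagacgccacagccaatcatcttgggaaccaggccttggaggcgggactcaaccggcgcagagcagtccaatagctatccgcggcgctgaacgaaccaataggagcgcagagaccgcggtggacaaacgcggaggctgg
*Mcm6*, chr1:128359656-128359955, minus strand: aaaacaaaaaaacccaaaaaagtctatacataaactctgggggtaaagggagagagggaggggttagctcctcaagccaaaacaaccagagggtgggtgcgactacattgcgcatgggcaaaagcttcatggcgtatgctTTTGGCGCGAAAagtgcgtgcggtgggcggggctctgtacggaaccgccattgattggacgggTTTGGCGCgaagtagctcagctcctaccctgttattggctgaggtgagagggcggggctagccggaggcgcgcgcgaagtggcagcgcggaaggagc
*Rrm2*, chr12:24708004-24708303, plus strand: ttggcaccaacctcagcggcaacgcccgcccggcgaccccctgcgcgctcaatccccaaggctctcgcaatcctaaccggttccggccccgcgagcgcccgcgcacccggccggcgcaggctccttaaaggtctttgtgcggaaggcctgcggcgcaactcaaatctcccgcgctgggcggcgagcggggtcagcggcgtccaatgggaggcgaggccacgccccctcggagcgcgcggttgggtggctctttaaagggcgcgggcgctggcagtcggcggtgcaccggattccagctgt

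Counted with the annotated start as 0, the matches began at 19 and 38 in *Mcm3*, at −153 and −149 in *Mcm5* and at −110, −106 and −47 in *Mcm6*. The *Mcm3* matches lie after the start and those of *Mcm5* and *Mcm6* before it.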

How the data were processed

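Poly(A)+ RNA of ING WAT of 8 mice was sequenced from both fragment ends. The authors aligned reads with STAR 2.3.0 to mm10, which is GRCm38, estimated FPKM per transcript with Cufflinks 2.1.1 and deposited 1 value per transcript and mouse; per the labels and the study's methods, CASAVA 1.8.2 and FastQC were used before. The deposited files also hold fold changes and p-values of the authors, which were not used, and no read counts, so the depth is unknown. Of 91969 transcripts, 40441 had lost at least 1 decimal mark. These were restored from the deposited standard deviation, average and score, and 49 without a single possible reading were left out. Of the restored transcripts, 5010 of 5010 that stand intact in the second file were equal in all 8 mice within a relative tolerance of 0.001.

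Transcripts were assigned to genes and positions with GENCODE vM21 (GRCm38) and the gene IDs of their row. FPKM were summed per gene. With limma 3.58.1 in R 4.3.3, log2(FPKM + 1) was compared where a gene's mean reached 1 FPKM over the 8 mice. A pseudocount of 1 understates the change of low genes. Single transcripts above 0 in all mice whose mean was above 2 FPKM at either age were compared on log2(FPKM). The threshold was an adjusted p of 0.05 (Benjamini-Hochberg). The fit was also run on simulated data with independent noise in each gene and mouse. Such data cannot show how the fit behaves where a whole mouse stands apart. The members and gene lists were chosen with earlier results of these data known. Values in every mouse are given for up to 3 members of each role with the lowest adjusted p under the threshold, for members with a log2 fold change above 0 or within 0.15 of 0, and for *Pcna*, *Mcm2*, *Rrm2* and *E2f1*; from each other list the genes with the lowest and highest log2 fold change are named, with *Cdkn1a*, *Cdkn1b*, *Cdkn1c*, *Ccnd1*, *Rb1* and *Mki67*. Alternatives were other pseudocounts, filters, scalings, weights, transcript sets and leaving out mice.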

Additional observations from a re-analysis of the deposited data

Results flagged for a closer look

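Dixon's test was applied to each age of each of the 44 members, that is 88 groups of 4 mice, and 5 groups held a mouse far from the other 3; chance alone flags about 1 in 20 groups. *Orc2* was 6.40 FPKM in PN21 mouse m145, against 8.11 to 8.50 FPKM in the other PN21 mice. *Orc5* was 10.6 FPKM in PN98 mouse m106, against 8.67 to 8.90 FPKM. *Gins4* was 24.0 FPKM in PN21 mouse m145, against 20.2 to 20.5 FPKM. *Prim2* was 4.96 FPKM in PN21 mouse m138, against 3.83 to 3.95 FPKM. *Ccne2* was 2.06 FPKM in PN98 mouse m35, against 1.62 to 1.68 FPKM, and was still below every PN21 mouse.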

How the results depend on the processing

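The count of members lower at PN98 with an adjusted p under 0.05 (18) was 9 with a pseudocount of 0.1, 8 without a filter on low values, 9 with scaling to nuclear genes and 33 with arrayWeights, while the share of all genes called lower (2.95%) was 2.39%, 2.05%, 1.67% and 21.8%. The count of members was 4 to 27 when 1 mouse was left out, with 0.706% to 18.0% of all genes: 27 without m35, 8 without m125, 6 without m1 or m145, 5 without m49, m114 or m138 and 4 without m106. Fewer mice entered these fits. No alternative called a member higher. The median log2 fold change of the members lay between −0.95 and −0.56 in all alternatives, and 20 to 33 members had ages that did not overlap. The counts of 31 without m35 and 33 without m35 and m145 came from fewer mice, in which groups separate more easily. The share of all genes without overlap is given only for the main fit (10.0%), so these counts have no background. For other replication genes, 15 lower became 9 with nuclear scaling, against 1.67% of all genes, and 37 with arrayWeights, against 21.8%. The count was 1 to 29 when 1 mouse was left out (29 without m35), against 0.706% to 18.0% of all genes. The count of 0 higher became 1 of 63 tested with nuclear scaling, against 566 of all 15961 genes. It became 1 of 61 with median of ratios, against 770 of all 15910 genes. For transcripts of members, 3 lower with an adjusted p under 0.05, against 0.618% of all transcripts, became 0 with nuclear scaling, 24 with arrayWeights and 6 with zeros allowed. The number was 0 to 21 when 1 mouse was left out, and 21 without m35, against 6.05% of all transcripts. With an unadjusted p under 0.05, 35 of 58 became 21 of 39 when a mean FPKM above 2 was asked at both ages. For the other transcript fits the share of all transcripts is not given here, so these changes have no background. Members with an E2F match numbered 12 with TTTCCCGC and TTTGGCGC alone. No paired analysis was possible because the mice of the 2 ages share no numbers. The cause of these changes was not tested.

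Over the 39 genes named and all alternatives, the side of the threshold and the direction were kept 571 times, a call was lost 119 times and gained 18 times, and the sign turned 31 times, for genes near 0 or with other transcripts. PN21 mouse m145 stood apart on the first principal component of the transcripts, the axis of most variance between mice, at 433. The other mice lay from −136 to 33.9. PN98 mouse m35 had the highest lymphocyte markers of its age. Without m35 and m145, *Orc2* was −0.0590, *Orc3* −0.0722, *Chtf8* −0.297 and *Rb1* 0.155 in log2 fold change. With all transcripts naming the gene, *Orc2* was −0.835, *Orc5* −0.637, *Chtf8* −0.307, *Rrm2b* −0.691 and *Rb1* 0.353. With protein-coding transcripts only, a sum chosen after seeing the data, *Orc3* was −0.0113, *Orc4* 0.272 and *Rb1* 0.484. With arrayWeights, *Gins4* was −0.00419, *Orc4* 0.0485, *Chtf8* −0.0171 and *Rb1* 0.0155. With nuclear scaling, *Orc4* was 0.152, *Cdkn1b* 0.0670 and *Rb1* 0.247, and with median of ratios 0.116, 0.0334 and 0.210. With 1 mouse left out, values ran from −0.0579 to 0.0617 for *Orc2*, from −0.0367 to 0.129 for *Orc3*, from −0.0177 to 0.0884 for *Gins4*, from −0.197 to 0.319 for *Chtf8*, from −0.152 to 0.0949 for *Rb1*.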
